A study of Solanum lycopersicum with 8 samples.

Results

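A set of 104 genes, of 34725 in the files, stood far above the other leaf libraries in 1 library, leaf replicate 4. The members were chosen on read counts scaled to the gene total of each library, as CPM, the counts of a gene per 1000000 gene counts. A member had at least 10 CPM in leaf replicate 4 and at least 4 times the highest level of leaf replicates 1 to 3. Of 10753 genes at 10 CPM or more in leaf replicate 4, 0.967% passed. Solyc09g084470, Solyc09g008670, Solyc03g020050 and Solyc08g074630, known as wound-induced genes of tomato, were left out of the set and served as its comparison. The leaf levels chose the members, so they are given here as a description, with no test.

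The study measured RNA in tomato of the cultivar M82, in 4 libraries from type VI trichome glands and in 4 libraries from leaf shaved of its trichomes. Type VI trichomes are leaf hairs whose secretory head cells make terpenes and flavonoids. Plants were 5 weeks old and had grown at 250 µE of light and 28 °C. Libraries were numbered by sampling 1 to 4 in both tissues. The trichome libraries are labelled as complemented line #4 and the leaf libraries as the af mutant, whereas the protocols take the shaved leaves from the plants of the trichome preparation. Genotype and tissue therefore cannot be told apart. Leaves were scraped by hand, so each leaf library also carries the handling of its sample, and the time between scraping and RNA extraction is not stated. In bulk samples, fewer cells of a type and less RNA per cell cannot be told apart.

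Wounding of a tomato leaf is known to raise the hormone jasmonate, which releases the transcription factor MYC2 from its JAZ repressors. The late products of this response are defence proteins that act in the gut of a feeding insect: inhibitors of digestive proteases, polyphenol oxidases, and threonine deaminase, arginase and leucine aminopeptidase, which act on amino acids and peptides. Leaves hit by a pathogen are known to make another group, the pathogenesis-related proteins, among them chitinases and thaumatin-like proteins.

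Gene totals ran from 24596280 to 26514416 counts in the trichome libraries and from 19209754 to 34941715 in the leaf libraries, and leaf replicate 4 was the deepest. Correlations of log CPM between leaf replicate 4 and leaf replicates 1 to 3 ran from 0.931 to 0.965, against 0.971 to 0.974 among leaf replicates 1 to 3. The same rule with each library in turn as the high one found 106 genes in leaf replicate 4, among them 2 of the 4 wound genes, and 0, 23 and 8 genes in leaf replicates 1, 2 and 3. In trichome replicates 1, 2, 3 and 4 it found 0, 3, 24 and 3 genes. Turned round, the rule found 29 genes that were low in leaf replicate 4, 51 that were low in trichome replicate 4 and 20 that were low in leaf replicate 2, of which 7 were members of the set. The summed level of 7 genes known from type VI glands was 80.5 CPM in leaf replicate 4, against 293, 597 and 103 CPM in leaf replicates 1, 2 and 3. This sum was thus lowest in leaf replicate 4.

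Together the members took 3.53% of all gene counts in leaf replicate 4, against 0.269%, 0.0769% and 0.155% in leaf replicates 1, 2 and 3. Their median level in leaf replicate 4 was 70.9 CPM, 43 of them were at 100 CPM or more and 8 at 1000 CPM or more. Over the highest of leaf replicates 1 to 3, 46 members stood at 4 to 8 times, 56 at 8 times or more, 31 at 16 times or more and 10 at 100 times or more. The other 2, Solyc01g108710 and Solyc06g072990, had 3 counts or fewer in each of leaf replicates 1 to 3 and are not counted by fold. The typical gene at 10 CPM or more in leaf replicate 4 had 0.752 times the highest of leaf replicates 1 to 3 there. Just inside the ratio threshold were Solyc02g090340, Solyc07g008570 and Solyc02g068080 at 4.00, 4.04 and 4.05 times, and just outside it were Solyc05g010420, Solyc02g082850 and Solyc08g079900 at 3.93, 3.81 and 3.81 times. Just inside the level threshold were Solyc00g174330, Solyc12g096310 and Solyc06g072990 at 10.02, 11.1 and 11.5 CPM, and just outside it were Solyc02g078150, Solyc04g005610 and Solyc12g013830 at 9.99, 9.82 and 9.76 CPM.

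**Figure D1:**
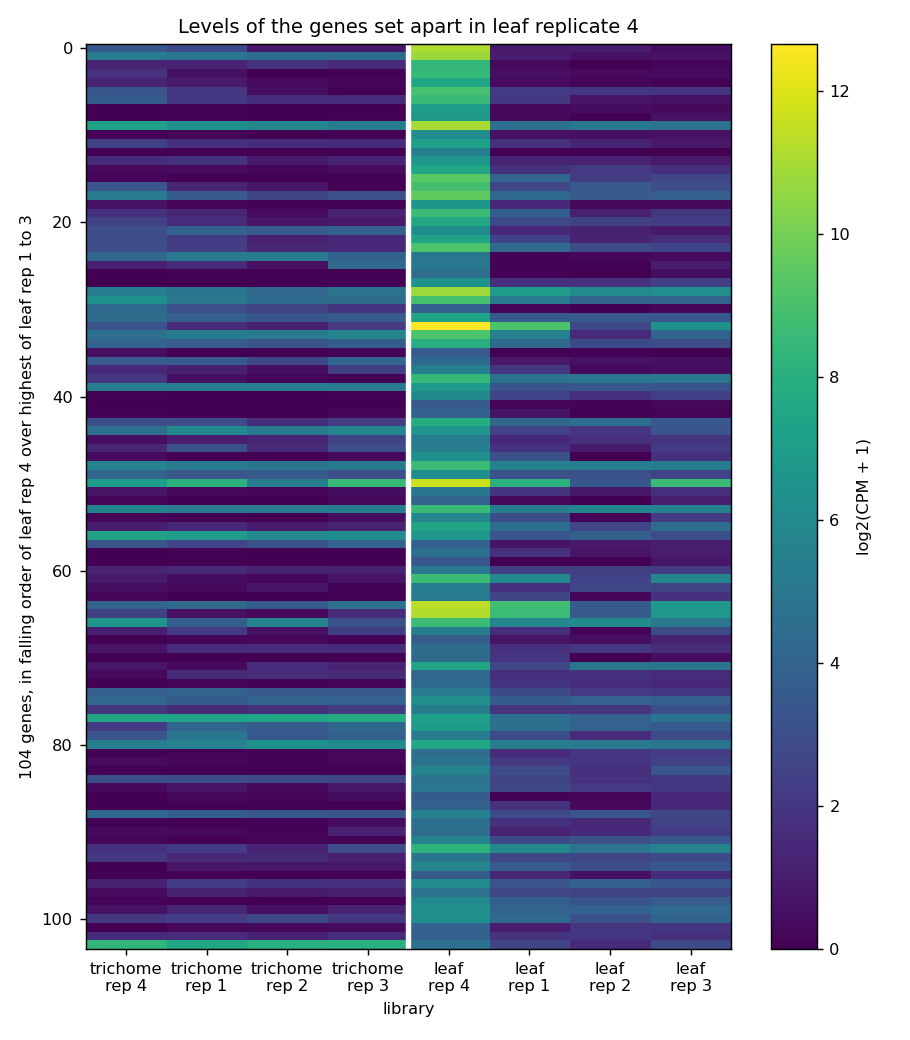
Level of each of the 104 genes in every library, as log2(CPM + 1), with genes in falling order, from top to bottom, of leaf replicate 4 over the highest of leaf replicates 1 to 3 on CPM + 1. The leaf replicate 4 column is bright throughout because it chose the genes, the genes differ among themselves in the other 3 leaf columns, and most genes are dark in all 4 trichome columns.

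The members with the highest ratios were close to silent in the other leaves. None of these IDs is paired with a name in the files or the reference table, so they are given by ID only. Solyc03g094020 had 2208 CPM in leaf replicate 4, against 0.885, 0.954 and 0.340 CPM in leaf replicates 1, 2 and 3. Solyc06g007970 had 1732 CPM in leaf replicate 4, against 1.04, 0.520 and 0.545 CPM in leaf replicates 1, 2 and 3. Solyc09g082460 had 328 CPM in leaf replicate 4, against 0.260, 0 and 0.136 CPM in the other 3. For these 3 genes leaf replicates 1 to 3 all lay near or under 1 CPM, and the level in leaf replicate 4 was 2315, 1663 and 1262 times the highest of them. Solyc11g012120 followed at 351 CPM in leaf replicate 4, against 0.416, 0.260 and 0.306 CPM in leaf replicates 1, 2 and 3, which is 844 times. Solyc08g078460 had 179 CPM in leaf replicate 4, against 0.312, 0.173 and 0.102 CPM in the other 3.

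Solyc01g108710 had 42.0 CPM, or 1467 counts, in leaf replicate 4 and no count in leaf replicates 1, 2 and 3. Set against the limit of 3 counts that a count of 0 allows in each library, it was at least 269-fold higher in leaf replicate 4. Solyc06g072990 had 402 counts in leaf replicate 4, against 1, 2 and 0 in leaf replicates 1, 2 and 3, too few there for a fold. A few members were well expressed in every leaf. Solyc08g006150 had 2029.9 CPM in leaf replicate 4, against 23.3, 33.5 and 25.9 CPM in leaf replicates 1, 2 and 3, and Solyc12g099000 had 1791 CPM, against 123.2, 66.3 and 74.1 CPM. Both were thus clearly present in all 4 leaf libraries and set apart in leaf replicate 4 by 60.6 and 14.5 times the highest of the others.

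**Figure D2:**
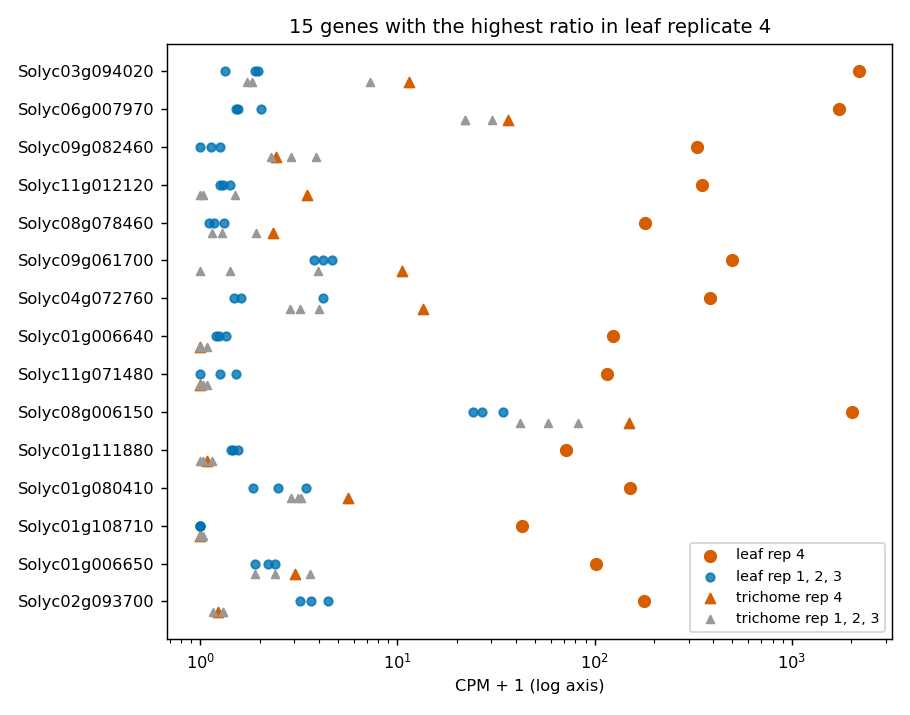
The 15 genes with the highest ratio of leaf replicate 4 over the highest of leaf replicates 1 to 3 on CPM + 1, drawn on a log axis, 1 point for each library. Leaf replicate 4 stands far to the right for every gene, and trichome replicate 4 is the highest trichome library for Solyc03g094020, Solyc06g007970 and Solyc08g006150 among others, at a small fraction of the level in leaf replicate 4.

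The wound genes themselves did not all behave alike in leaf replicate 4. Solyc09g084470 had 5404 CPM in leaf replicate 4, against 182, 0.954 and 70.2 CPM in leaf replicates 1, 2 and 3. Solyc08g074630 had 454 CPM in leaf replicate 4, against 9.01, 3.47 and 5.85 CPM in the other 3. TD2 (Solyc09g008670), the threonine deaminase of the defence response, had 1176 CPM in leaf replicate 4, against 703, 100.2 and 699 CPM in leaf replicates 1, 2 and 3. The first 2 met the thresholds of the rule, at 29.7 and 50.5 times the highest of the others, while TD2 stood at 1.67 times and was already high in leaf replicates 1 and 3. Solyc03g020050 had 1 count in leaf replicate 4 and none in leaf replicates 1 to 3, so it was not detected in leaf. The 3 detected wound genes shared 1 order among the other leaves, with leaf replicate 1 the highest, 3 next and 2 the lowest.

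Published genes of the wound response that were not used by the rule were counted next, from a list of 23 such genes in the files. Of the 16 at 10 CPM or more in leaf replicate 4, 14 were highest there among the leaf libraries, beside 15.1% of all tested genes at that level, and their median was 2.93 times the highest of leaf replicates 1 to 3. Of these 16, 6 were members, beside the 0.967% of all such genes. The filter at 10 CPM uses leaf replicate 4 itself, here and for the lists below. List genes that were low there are therefore not counted. The proteinase inhibitor mcpi (Solyc07g007250), which blocks carboxypeptidases in the insect gut, had 3317 CPM in leaf replicate 4, against 272, 9.97 and 400.1 CPM in leaf replicates 1, 2 and 3. ODC (Solyc04g082030), ornithine decarboxylase of polyamine synthesis, had 287 CPM in leaf replicate 4, against 62.5, 28.7 and 49.8 CPM in the other 3. LAPA2 (Solyc12g010030), a leucine aminopeptidase of wounded leaves, had 19.6 CPM in leaf replicate 4, against 2.86, 0 and 0.374 CPM in leaf replicates 1, 2 and 3. All 3 were lowest in leaf replicate 2, and which of the neighbouring IDs Solyc12g010020 and Solyc12g010030 is LAPA1 and which LAPA2 is uncertain.

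The other 3 members of that list are given by ID. Solyc03g098790 had the highest level of all members, at 6486 CPM in leaf replicate 4, against 542, 5.68 and 85.7 CPM in leaf replicates 1, 2 and 3. Solyc09g084490 had 2614 CPM in leaf replicate 4, against 443, 11.8 and 115 CPM in the other 3. Solyc09g084480 had 542 CPM in leaf replicate 4, against 45.6, 1.86 and 16.4 CPM in leaf replicates 1, 2 and 3. These genes were already uneven among leaf replicates 1 to 3, with a wide gap between leaf replicates 1 and 2. Solyc09g084480 and Solyc09g084490 share their published name with the wound gene Solyc09g084470 and directly follow it in number. Neighbours of like sequence can share reads, so they are not independent of that wound gene. Further wound genes lay in the same direction below the threshold. ARG2 (Solyc01g091170), an arginase, had 337 CPM in leaf replicate 4, against 131, 9.58 and 91.4 CPM in leaf replicates 1, 2 and 3. LAPA1 had 54.4 CPM in leaf replicate 4, against 16.4, 0.130 and 5.75 CPM in the other 3, and missed the ratio threshold at 3.32 times. The list also held genes that were not raised, such as Solyc03g020040 at 23.3 CPM in leaf replicate 4, against 28.8, 60.7 and 23.2 CPM in leaf replicates 1, 2 and 3.

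The jasmonate pathway upstream of these defence genes gave no member. The list for jasmonate synthesis also holds HPL (Solyc07g049690), a hydroperoxide lyase of a side branch. Of its 8 genes at 10 CPM or more in leaf replicate 4, HPL included, 0 passed the rule, beside 0.967% of all such genes. At that share a list of this size would hold few or no members. Of the 8, 2 were highest in leaf replicate 4, beside 15.1% of all tested genes at that level. The lipoxygenase loxF (Solyc01g006560) had 1311 CPM in leaf replicate 4, against 499.9, 197 and 502 CPM in leaf replicates 1, 2 and 3. The allene oxide cyclase AOC (Solyc02g085730), which forms the ring of the jasmonate precursor, had 125 CPM in leaf replicate 4, against 103, 94.5 and 163 CPM in the other 3. AOC thus lay inside the range of the other leaves, and loxF lay 2.61 times above it. OPR3 (Solyc07g007870), the reductase of the next step, had 44.6 CPM in leaf replicate 4, against 41.0, 44.3 and 66.1 CPM in leaf replicates 1, 2 and 3.

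Jasmonate signalling gave 0 members among 12 genes at that level, beside 0.967% of all such genes, a share at which few or none would be found. Of the 12, 9 were highest in leaf replicate 4, beside 15.1% of all tested genes at that level. Their median was 1.11 times the highest of leaf replicates 1 to 3. MYC2 (Solyc08g076930), the transcription factor of the pathway, had 179 CPM in leaf replicate 4, against 133, 151 and 179 CPM in leaf replicates 1, 2 and 3. JAZ2 (Solyc12g009220), a repressor that MYC2 itself is known to switch on, had 36.2 CPM in leaf replicate 4, against 7.34, 5.68 and 21.8 CPM in the other 3. The nearest to the threshold was Solyc12g049400 at 24.4 CPM in leaf replicate 4, against 3.85, 1.26 and 6.81 CPM in leaf replicates 1, 2 and 3. The highest ratio in leaf replicate 4 was thus 3.59 among the jasmonate genes, and 12.0 among the wound defence genes, for Solyc03g098790.

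Pathogenesis-related genes gave 3 members of 8 at 10 CPM or more, beside 0.967% of all such genes. Of the 8, 7 were highest in leaf replicate 4, beside 15.1% of all tested genes at that level. The chitinase CHI9 (Solyc10g055810) had 20.9 CPM in leaf replicate 4, against 1.41, 1.95 and 3.78 CPM in leaf replicates 1, 2 and 3. Its neighbour Solyc10g055800 had 35.5 CPM in leaf replicate 4, against 1.77, 2.38 and 2.93 CPM in the other 3. The thaumatin-like gene PR-5 (Solyc08g080650) had 13.8 CPM in leaf replicate 4, against 0.625, 0.824 and 1.12 CPM in leaf replicates 1, 2 and 3. Unlike the wound genes, these 3 were highest in leaf replicate 3 and lowest in leaf replicate 1 of the other leaves.

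Of the ethylene list, 1 of 4 genes at that level was a member, beside 0.967% of all such genes. This was MSRA (Solyc03g111720), also known as E4, a methionine sulfoxide reductase whose transcript is known to respond to ethylene in ripening fruit. It had 115 CPM in leaf replicate 4, against 9.01, 10.3 and 8.14 CPM in leaf replicates 1, 2 and 3, and so was even among the other leaves. The ethylene synthesis genes ACS6 and ACO1 stood at 1.27 and 1.34 times the highest of leaf replicates 1 to 3. CKX2 (Solyc01g088160), a cytokinin oxidase and so an enzyme that breaks down the hormone cytokinin, had 59.2 CPM in leaf replicate 4, against 13.5, 8.15 and 11.3 CPM in the other 3. No member came from the lists for heat shock (3 genes at 10 CPM or more), abscisic acid and drought (3), RNA silencing (4) or the circadian clock (9). Flower organ and type VI gland genes each had 1 gene at that level and no member, and fruit and meristem genes had 0 at that level. At the 0.967% of all genes at that level that passed the rule, lists of these sizes would hold few or no members.

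**Figure D3:**
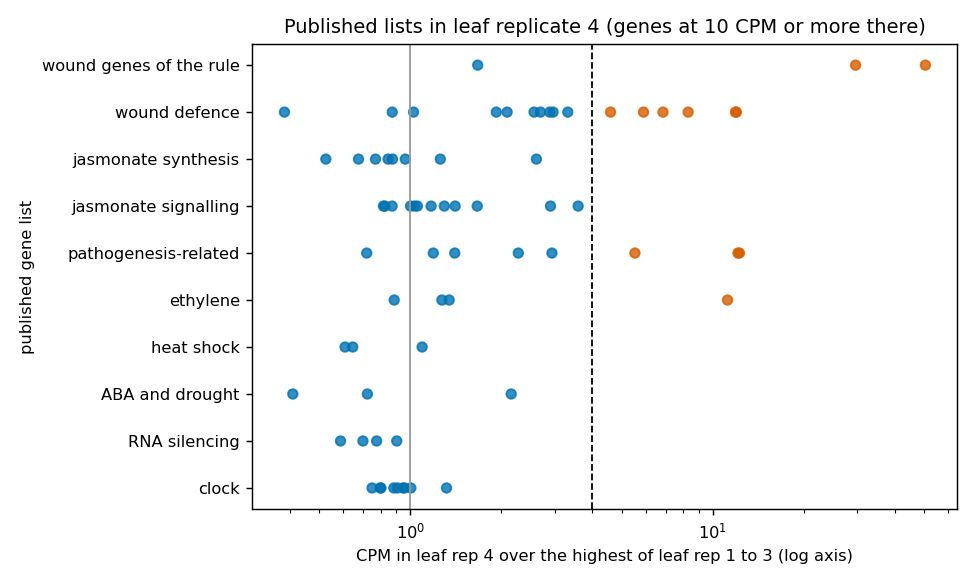
The wound genes of the rule and genes of 9 published lists, at 10 CPM or more in leaf replicate 4, as their level there over the highest of leaf replicates 1 to 3, on a log axis. The dashed line is the threshold of 4 and the grey line marks equal levels, and 10 genes pass outside the wound genes of the rule: 6 of the wound list, 3 of the pathogenesis-related list and 1 of the ethylene list. Of all genes at 10 CPM or more in leaf replicate 4, 0.967% pass.

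Whether the members followed the wound genes was then read from libraries in which the members were not high. Among leaf replicates 1 to 3, 33 of the 104 members (31.7%) had the order of the wound genes, 1 over 3 over 2, beside 7.01% of all 20800 tested genes. The order 3 over 1 over 2 held for 21 members, beside 9.80% of all tested genes, and 1 over 2 over 3 for 19 members, beside 11.3%. The remaining orders, 2 over 1 over 3, 3 over 2 over 1 and 2 over 3 over 1, held for 11, 10 and 8 members, beside 18.8%, 18.9% and 33.5% of all tested genes, and 2 members were tied. Leaf replicate 2 was the lowest of the 3 for 54 members, beside 16.8% of all tested genes. Leaf replicates 1 to 3 also entered the rule through their highest value, so these shares are a description. Under TMM factors, which scale to a trimmed mean of the genes, the share with the order of the wound genes was 35.2% of 128 members, beside 15.5% of all tested genes. Under DESeq2 size factors it was 35.4% of 130 members, beside 18.8%.

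**Figure D4:**
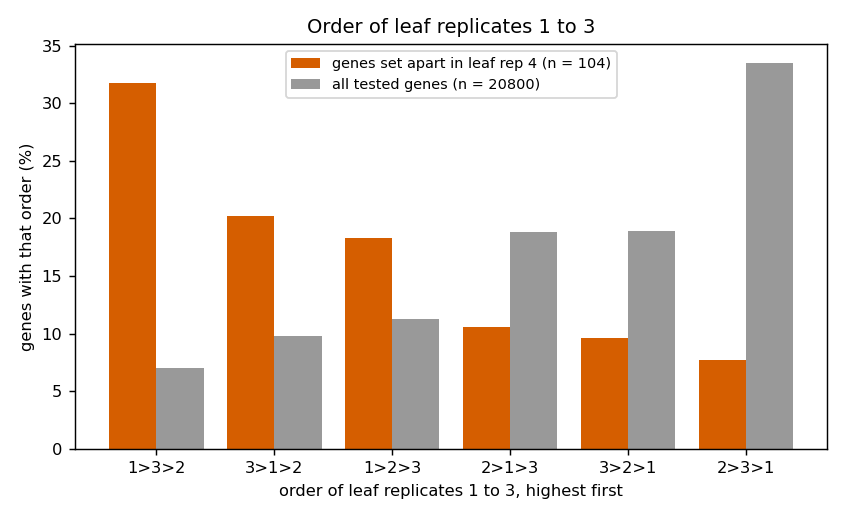
Share of genes with each order of leaf replicates 1 to 3, highest first, for the 104 genes set apart in leaf replicate 4 and for all 20800 tested genes, with ties left out. The order of the wound genes, 1 over 3 over 2, is the most frequent among the members (31.7%) and the least frequent among all tested genes (7.01%).

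The members were more uneven among the other leaves than most genes, in a comparison that was not matched for level. The rule keeps members low there beside leaf replicate 4, and their median levels were 4.74, 2.60 and 3.80 CPM in leaf replicates 1, 2 and 3. Of the 104, 17 stayed under 1 CPM in leaf replicates 1 to 3, where their evenness cannot be read on CPM + 1. Of the other 87, 45 (51.7%) had leaf replicates 1 to 3 within 2 times of each other on CPM + 1, beside 88.6% of tested genes at 10 CPM or more in leaf replicate 4 and at 1 CPM or more in any of the other leaves. A spread of 5 times or more was seen for 11 of the 87, beside 0.625% of those genes. The set therefore held genes that were raised in leaf replicate 4 from an even level, such as Solyc08g006150 and MSRA, and genes that varied strongly among all 4 leaves in the order of the wound genes, such as Solyc03g098790, Solyc09g084490 and Solyc09g089510. The median ratio of leaf replicate 4 over the highest of the other leaves was 10.3 for the 33 members in the order of the wound genes and 8.63 for the other 71.

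The likeness was also put as Pearson's r between each member and the mean of the 4 wound genes, over the 7 libraries other than leaf replicate 4. It was taken on log2(CPM + 1), centred within each tissue. The mean includes Solyc03g020050, which had no count in leaf replicates 1 to 3 and, among the trichome libraries, 31 counts in trichome replicate 3 alone. The median r was 0.319 over the members, with a range of -0.775 to 0.976, and -0.178 over all tested genes. An r of 0.8 or more was reached by 17 members (16.3%), beside 2.15% of all tested genes, and 32 members had an r below 0. All genes are read from the same 7 libraries and so share each library's depth and scaling. The wound genes differed more among leaf replicates 1 to 3 than among the trichome libraries. The r therefore mostly repeats the leaf order above and is no separate reading. Within the trichome libraries alone, r ran from -0.942 for Solyc01g006290 to 0.980 for Solyc10g055810 over the members. Both were under 5 CPM in every trichome library, and the median of this r is not given. Under TMM factors the medians were 0.429 over the members and 0.000468 over all tested genes. The 8 members most like the wound genes were Solyc09g089520, Solyc09g084490, Solyc01g005680, Solyc09g084480, Solyc12g096780, Solyc10g084320, Solyc12g006590 and Solyc10g078360. Solyc09g084480 and Solyc09g084490 are the neighbours of the wound gene Solyc09g084470 and are not independent of it. Solyc12g096780 had 393 CPM in leaf replicate 4, against 63.1, 4.90 and 54.7 CPM in leaf replicates 1, 2 and 3. Solyc10g084320 had 169 CPM in leaf replicate 4, against 23.2, 5.38 and 21.8 CPM in the other 3. In both genes leaf replicates 1 and 3 were close and leaf replicate 2 far below, as in TD2.

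Some members lay side by side in the genome. Tomato gene IDs count along each chromosome in steps of 10, and 30 of the 104 members (28.8%) lay within 50 of another member, in 12 runs. Of the other 10649 genes at 10 CPM or more in leaf replicate 4, 2.95% lay within 50 of a member. The longest run was Solyc09g089500 to Solyc09g089540 on chromosome 9, where all 5 gene numbers in a row were members. Solyc09g089510 had 2308 CPM in leaf replicate 4, against 393, 11.5 and 107 CPM in leaf replicates 1, 2 and 3. Solyc09g089530 had 416 CPM in leaf replicate 4, against 12.9, 1.17 and 3.13 CPM in the other 3. The ratios in the run went from 5.87 to 32.3, and all 5 genes had the order of the wound genes.

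Runs of 3 were found at Solyc01g006640 to Solyc01g006660, Solyc03g096760 to Solyc03g096780 and Solyc03g117380 to Solyc03g117410. In the second of them the members were even in size, at 27.4 to 39.9 times the highest of the other leaves, and Solyc03g096780 had 752 CPM in leaf replicate 4, against 18.8, 11.2 and 13.1 CPM in leaf replicates 1, 2 and 3. The first was uneven: Solyc01g006640 stood at 356 times and Solyc01g006660 at 7.77 times. The third had low ratios of 4.48 to 6.98 and an order of its own, 2 over 1 over 3, in all 3 genes. Neighbours of like sequence can share reads, and the counting settings are not stated, so members of a run are not independent. By chromosome, 16 members lay on chromosome 1, 15 on chromosome 3, 13 each on chromosomes 10 and 12, 12 on chromosome 9 and 1 on chromosome 5. As a share of the genes at 10 CPM or more in leaf replicate 4 on the same chromosome, these were 1.13% for chromosome 1, 1.32% for 3, 1.80% for 10, 1.93% for 12, 1.55% for 9 and 0.134% for 5.

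Trichome replicate 4 carries the same sampling number as leaf replicate 4, and the trichome libraries did not enter the rule. The members took 0.179% of gene counts in trichome replicate 4, against 0.152%, 0.118% and 0.163% in trichome replicates 1, 2 and 3. Most members were low in the glands: 60 stayed under 5 CPM in every trichome library, 37 of these under 1 CPM, and 3 members had no count in any. Over all 20800 tested genes, which leave out 17 of the members, 13470 reached 5 CPM in a trichome library. For the lower limits the counts over all genes are not given. The other 44 members could be ranked. Of these, 26 (59.1%) were highest in trichome replicate 4, beside 15.6% of the 13470 tested genes at that level. In trichome replicates 1, 2 and 3, 5, 3 and 10 of the 44 members were highest (11.4%, 6.82% and 22.7%), beside 34.2%, 16.8% and 33.4% of all genes at that level.

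At the other end, 8 of the 44 members were lowest in trichome replicate 4, beside 60.7% of all genes at that level. Trichome replicate 4 was at 1.31 times the median of trichome replicates 1 to 3 for the median member and at 0.815 times for the median gene. Of the 44 members, 7 stood at 2 times or more the highest of trichome replicates 1 to 3, beside 0.327% of all genes at that level. The shares depend on the scaling: on gene totals most genes were lowest in trichome replicate 4. Under TMM factors, 39 of 56 members (69.6%) were highest in trichome replicate 4, beside 41.1% of all genes, and 16 were at 2 times or more, beside 0.834%. Under DESeq2 size factors, 39 of 56 members (69.6%) were again highest there, beside 51.3% of all genes, and 19 were at 2 times or more, beside 1.35%. There is 1 library with this sampling number in each tissue, so no replicate stands behind these counts.

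**Figure D5:**
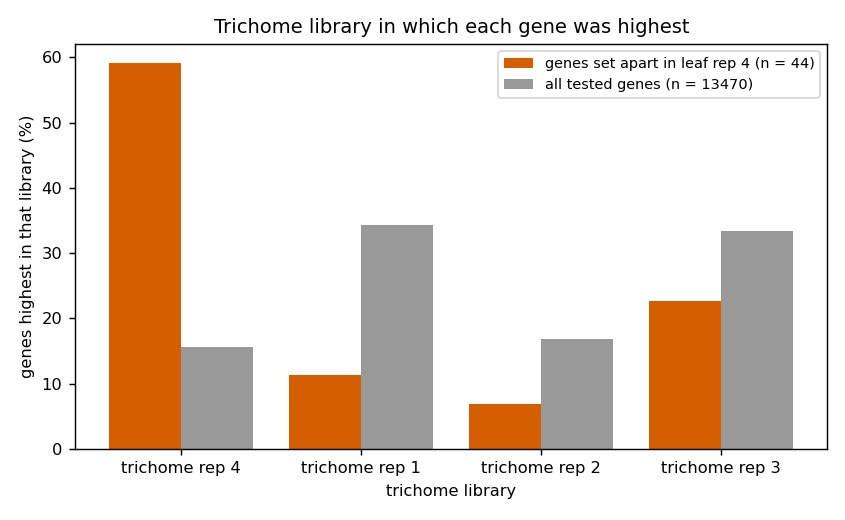
Share of genes that were highest in each trichome library, for the 44 members at 5 CPM or more in a trichome library and for the 13470 tested genes at that level. Among the members 59.1% were highest in trichome replicate 4, against 15.6% of all genes, and the other 3 libraries hold a smaller share of the members than of all genes.

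The size of the difference in the glands was small beside that in the leaf. Solyc03g096780 had 36.1 CPM in trichome replicate 4, against 11.4, 5.08 and 7.62 CPM in trichome replicates 1, 2 and 3. Solyc04g072760 had 12.5 CPM in trichome replicate 4, against 2.99, 2.20 and 1.85 CPM in the other 3. Solyc10g052500 had 8.96 CPM in trichome replicate 4, against 1.52, 0.651 and 0 CPM in trichome replicates 1, 2 and 3. These 3 genes stood clear of the other trichome libraries, at 3.16, 4.16 and 5.91 times the highest of them, while their levels in leaf replicate 4 were 752, 386 and 478 CPM. Solyc02g032860 had 80.9 CPM in trichome replicate 4, against 32.7, 20.4 and 21.5 CPM in trichome replicates 1, 2 and 3. Solyc08g006150 had 149 CPM in trichome replicate 4, against 81.1, 56.8 and 40.8 CPM in the other 3, and Solyc06g007970 had 35.3 CPM, against 29.4, 21.0 and 21.0 CPM. Solyc06g007970 was thus far less set apart in the gland than in the leaf, at 1.20 times the highest other trichome library. Solyc09g061700, Solyc03g098790, Solyc10g079690 and Solyc03g096770 complete the 8 members with the highest ratio in trichome replicate 4, at 3.22, 2.58, 2.55 and 1.95 times the highest of the other 3.

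Across all members, the level in trichome replicate 4 was 1.49% of the level in leaf replicate 4 at the median. Among 234 genes at 500 CPM or more in leaf replicate 4, the level in trichome replicate 4 went down to 0.00955% of the leaf level, with a first percentile of 0.0214%. For Solyc03g094020 it was 0.471% and for Solyc03g096780 4.80%. The member Solyc04g054730 had 0.114 CPM in trichome replicate 4 and 693 CPM in leaf replicate 4, which is 0.0165%. The summed level of a pair of leaf photosynthesis genes (Solyc03g034220 and Solyc07g047850) was 1311 CPM in trichome replicate 4, against 1363, 1250 and 1267 CPM in trichome replicates 1, 2 and 3. On gene totals the sum in trichome replicate 4 thus lay inside the range of the other trichome libraries, but the genes of the pair differed. Solyc03g034220 was lowest there, at 588 CPM against 830, 667 and 640 CPM in trichome replicates 1, 2 and 3. Solyc07g047850 was highest there, at 723 CPM against 533, 583 and 627 CPM. TMM factors were 0.778 in trichome replicate 4 and 1.00, 0.924 and 1.03 in the others, so TMM scaling would raise its levels relative to theirs.

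On gene totals, the 3 wound genes of the rule that were detected were not raised in trichome replicate 4. Solyc09g084470 had 9.72 CPM in trichome replicate 4, against 10.3, 9.15 and 14.7 CPM in trichome replicates 1, 2 and 3. TD2 had 1.30 CPM in trichome replicate 4, against 0.909, 0.691 and 2.94 CPM in the other 3, and Solyc08g074630 had 2.74 CPM, against 2.96, 0.976 and 3.47 CPM. All 3 lay inside the range of the other trichome libraries on gene totals, with Solyc08g074630 at 0.791 times the highest of them. TMM factors would raise trichome replicate 4 against the other 3, and the ranks of these genes under TMM factors are not given. The longer list of wound defence genes was mixed. It held 12 genes at 10 CPM or more in leaf replicate 4 and at 5 CPM or more in a trichome library. Of these 12, 4 were highest in trichome replicate 4. Over all tested genes at 5 CPM or more in a trichome library, whatever their level in leaf replicate 4, the share was 15.6%. The 4 were Solyc03g098790, ARG2, MTS1 and Solyc03g098780, at 2.58, 1.45, 1.18 and 1.42 times the highest of trichome replicates 1 to 3. Among list genes under 10 CPM in leaf replicate 4, HMG2 (Solyc02g038740) was also highest in trichome replicate 4. It had 44.2 CPM there, against 19.7, 31.8 and 32.3 CPM in trichome replicates 1, 2 and 3. Solyc03g020030, Solyc03g020070 and Solyc08g074620, also under 10 CPM in leaf replicate 4, were not highest there. ARG2 had 17.9 CPM in trichome replicate 4, against 6.55, 6.63 and 12.3 CPM in trichome replicates 1, 2 and 3, whereas mcpi had 132 CPM, against 281, 41.0 and 381 CPM. ARG2 thus lay above the other trichome libraries and mcpi inside their range. Members in the order of the wound genes and members in other orders were ranked separately in the glands: 8 of 12 in that order and 18 of 32 in other orders were highest in trichome replicate 4. Whether these shares differ was not tested.

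The 8 members lowest in trichome replicate 4 relative to the other 3 were Solyc06g019170, Solyc10g055800, Solyc07g008520, Solyc04g074770, Solyc09g084480, Solyc06g083900, Solyc09g082860 and Solyc06g054270. Solyc04g074770 had 24.2 CPM in trichome replicate 4, against 62.7, 36.4 and 49.6 CPM in trichome replicates 1, 2 and 3. Solyc09g082860 had 41.8 CPM in trichome replicate 4, against 48.6, 88.3 and 62.6 CPM in the other 3. On gene totals, these members were thus high in leaf replicate 4 and low in the trichome library of the same number. On that scale 60.7% of all tested genes at 5 CPM or more in a trichome library were lowest in trichome replicate 4. The ranks of these 8 members under TMM factors are not given.

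The last comparison places the members between the tissues without leaf replicate 4, with trichome replicates 1 to 4 set against leaf replicates 1 to 3. By edgeR's quasi-likelihood test at a Benjamini-Hochberg adjusted p under 0.05, 32.7% of 20800 tested genes were higher and 37.2% lower in trichome. Of the 104 members, 87 had enough counts to be tested, of which 21 were higher, 37 lower and 29 not called. The median log2 fold change was -0.33 over the members and -0.08 over all tested genes. Leaf replicates 1 to 3 entered the rule through their highest value, which favours genes that are low there, so these counts are a description and no more.

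Among the members higher in trichome, Solyc02g090340 averaged 249.6 ± 60.1 CPM in trichome (SD, n = 4) and 4.58 ± 2.33 CPM in leaf (SD, n = 3). Its log2 fold change was 6.05 ± 0.55 (SE), with an edgeR adjusted p of 2.45e-05. PR-5 averaged 9.38 ± 4.00 CPM in trichome and 0.857 ± 0.251 CPM in leaf, a log2 fold change of 3.71 ± 0.42 with an edgeR adjusted p of 8.29e-05. MSRA averaged 39.2 ± 2.97 CPM in trichome and 9.15 ± 1.10 CPM in leaf, a log2 fold change of 2.40 ± 0.19 with an edgeR adjusted p of 1.2e-05. Their levels of 26.0, 13.8 and 115 CPM in leaf replicate 4 lay below the trichome mean for Solyc02g090340 and above it for PR-5 and MSRA. Solyc06g007970 averaged 26.7 ± 6.95 CPM in trichome and 0.702 ± 0.294 CPM in leaf, a log2 fold change of 5.58 with an edgeR adjusted p of 1.15e-05, and turned to -3.97 when leaf replicate 4 was added. With leaf replicate 4 and the sampling number as a block it was 3.93.

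Among the members lower in trichome, CKX2 had 0.152 CPM in trichome replicate 4 and no count in trichome replicates 1 to 3, against 13.5, 8.15 and 11.3 CPM in leaf replicates 1, 2 and 3, a log2 fold change of -7.71 ± 0.81 with an edgeR adjusted p of 5.34e-05. This value rests on 4 counts in trichome replicate 4: it was -11.03 without that library and -11.00 with the sampling number as a block, where a fitted fold is no bound. ODC averaged 3.61 ± 2.47 CPM in trichome and 47.0 ± 17.1 CPM in leaf, a log2 fold change of -3.49 ± 0.50 with an edgeR adjusted p of 0.000325. Solyc09g089510 averaged 1.77 ± 1.90 CPM in trichome and 171 ± 199 CPM in leaf, a log2 fold change of -6.31 ± 1.34 with an edgeR adjusted p of 0.00287. The inhibitor mcpi had no call, at 209 ± 151 CPM in trichome and 227 ± 199 CPM in leaf, a log2 fold change of 0.05 ± 1.01 with an edgeR adjusted p of 0.967. With the sampling number as a block, again without leaf replicate 4, 21 members were higher and 42 lower, beside 33.2% and 37.1% of all 20800 tested genes. With leaf replicate 4 added, 2 members were higher and 42 lower, beside 33.9% and 38.5% of 20409 tested genes, and with the block as well 7 were higher and 43 lower, beside 33.2% and 38.0%. The members were chosen for a high level in leaf replicate 4, so the rule largely fixed the direction of these counts. They are no result about the members.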

How the data were processed

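The deposited files hold raw read counts per gene, made by the authors with Trimmomatic, TopHat2, SAMtools and HTSeq, per the submitters' processing notes. Build, annotation and strand: not given in the sources used here. HTSeq's summary lines (12.7% to 24.4% of counts) were left out. The members and lists were chosen with earlier results of these data known. CPM was computed on gene totals, without TMM factors. The test on counts was edgeR 4.0.16's quasi-likelihood fit, run in R 4.3.3 (TMM, filterByExpr, no block); DESeq2 1.42.0 was an alternative. On simulated data for this comparison, over 20800 genes, 68% of 2-fold and 100% of 4-fold changes were recovered, with 7 false calls. Limits on a count of 0 cover counting error only, and p-values the spread between libraries.

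Names are published ones whose symbol and relative position, within 5 percentage points, matched the reference table (RefSeq SLM_r2.1): 66 of 138 passed. None of the 34725 IDs is in that table, so the other genes are given by ID. Genes were named by rule: the wound genes, 15 members by ratio, 10 by level, 8 by r, 8 highest and 8 lowest in trichome replicate 4, the thresholds' neighbours, named list genes and the longest runs; other list genes were chosen after their values were seen. Sampling numbers were taken to pair libraries, as the labels share them and the protocols name the same plants. Deviations of same-numbered libraries correlated at 0.0625, 0.130, 0.218 and 0.186. Those of libraries with different numbers ran from -0.254 to 0.163. Leaf replicate 1 reached 0.163 with trichome replicate 4 and leaf replicate 2 reached 0.146 with trichome replicate 1, each above the value of its own number. These correlations therefore do not settle the pairing.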

Additional observations from a re-analysis of the deposited data

Results flagged for a closer look

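In 4 of 32 groups of 4 libraries that were checked with Dixon's test, 1 library lay far from the others. Chance flags about 1 in 20 groups of unselected values, but these genes were partly picked for their level in trichome replicate 4 or leaf replicate 4, so that rate is no yardstick for this count. The gap over the whole range passed the 95% critical value for 4 samples. In the trichome libraries this gap was 0.892 for Solyc04g072760 and 0.831 for Solyc10g052500, both with trichome replicate 4 as the high library. In the leaf libraries it was 0.966 for Solyc09g084470 and 0.988 for Solyc08g074630, both with leaf replicate 4 as the high library. The cause of these gaps was not tested.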

How the results depend on the processing

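A ratio threshold of 8 in place of 4 left 58 members, 11 of them beside another. The median r with the wound genes was 0.429 under TMM factors and 0.460 under DESeq2 size factors. With all 8 libraries in the tissue test, 2 members were higher in trichome, beside 33.9% of 20409 tested genes, and with the replicate block as well 7, beside 33.2%. Both counts include leaf replicate 4, which chose the members, so the rule largely fixed their direction. Without leaf replicate 4, the block gave 21 higher and 42 lower members, beside 33.2% and 37.1%. All genes whose log2 fold change turned are given here, called or not. With all 8 libraries they were Solyc01g006650 (-3.87), Solyc01g080410 (-3.76), Solyc03g094020 (-6.80), Solyc03g096780 (-3.57), Solyc04g072760 (-4.17), Solyc06g007970 (-3.97), mcpi (Solyc07g007250, -2.26), Solyc08g006150 (-2.58), Solyc09g061700 (-5.12), Solyc09g082460 (-5.46), Solyc09g082860 (-0.20) and Solyc11g012120 (-6.73). With the replicate block and all 8 libraries they were Solyc01g006650 (-0.76), Solyc01g080410 (-0.57), Solyc03g094020 (-0.15), Solyc03g096780 (-1.44), Solyc04g072760 (-0.11), mcpi (-0.19), Solyc09g061700 (-3.31) and Solyc11g012120 (-4.71). With the block alone they were Solyc03g096780 (-0.69), Solyc09g061700 (-2.14) and Solyc11g012120 (-1.18). The value of mcpi, 0.05 in the reported test, was -0.0335 under RLE factors, -0.12 under library size alone and -0.0352 in DESeq2. Leaving out 1 library gave -0.52 to 0.66 for mcpi, -0.69 to 0.77 for Solyc03g096780 and -1.34 to 0.88 for Solyc09g061700. Adding leaf replicate 4, whose values chose the members, is what turns the values of all 8 libraries; for the others the cause was not tested. Keeping the members under 1 CPM, a count added after seeing the data, gave 62 members even among leaf replicates 1 to 3. Library size alone moved the median log2 fold change of all genes to -0.36 and the share of calls that were higher to 36.8%, against 46.8% in the reported test. Leaving out 1 library at a time gave 111 to 150 members, 26 to 33 highest in trichome replicate 4, a median r of 0.280 to 0.416, 17 to 23 members higher and 32 to 40 lower in trichome. Among all tested genes it gave 6069 to 6933 higher and 7161 to 7870 lower. The 26 to 33 have no share over all genes beside them. Leaving out a leaf library changes the members, and leaving out a trichome library leaves fewer to be highest in. These counts are therefore no measure of stability. Each sampling is 1 library per tissue, so what sets leaf replicate 4 apart cannot be told apart from that library.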
